A study of Homo sapiens with 6 samples.

Results

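A set of 10 genes that mark the epithelial-mesenchymal transition (EMT) was followed in BT474 cells that carried variant 1 or variant 4 of the long noncoding RNA NR2F1-AS1. The genes were the transcription factors SNAI1, SNAI2, ZEB1, ZEB2 and TWIST1, the cadherins CDH1, CDH2 and CDH3, the intermediate filament gene VIM and the matrix gene FN1. They were chosen by name, and every array probe filed under one of these names was taken, which gave 17 probes of 10 genes among 58201 probes of 43317 gene names. BT474 is an ER-positive and HER2-positive human breast cancer cell line. Control BT474 cells were transfected with empty pcDNA3.1, BT474-Var1 cells with pcDNA3.1-NR2F1-AS1variant1 and BT474-Var4 cells with pcDNA3.1-NR2F1-AS1variant4, and each group was measured on 2 one-color Agilent arrays, A and B. The paper's methods place variant 1 in pcDNA3.1/Hygro(+) and variant 4 in pcDNA3.1-P2A-eGFP, so variant and plasmid backbone cannot be told apart. All cells grew in RPMI-1640 medium with serum. The transfected cells had passed antibiotic selection, so that the arrays read the cells that survived it. The paper reports that cells with either variant dwindled to a few, from which colonies of altered shape later grew. Loss and regrowth cannot be told apart from a direct effect of the RNA. Whether each group began from 1 or several transfections is not stated. Which of the empty plasmids the arrayed Control cells carried is not stated, and nothing says that arrays A and B came from separate cultures, so the p-values measure only the spread between arrays.

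In EMT, epithelial cells loosen their E-cadherin junctions and take on a motile, vimentin-rich state. The Snail, ZEB and Twist factors bind E-box motifs and repress epithelial genes such as CDH1, and the microRNAs of the miR-200 family and miR-205 hold ZEB1 and ZEB2 down in epithelial cells. A partial transition, in which only some of these genes move, is common in carcinoma cells.

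The probes that carried the results or stayed dark in the coding part of a transcript are shown first, 5′ to 3′ as printed on the array, because each level below is the brightness of such a 60-base oligonucleotide. The positions are those of hg19, and the VIM and FN1 probes span an exon junction.
VIM, chr10:17278347-17279256, plus strand: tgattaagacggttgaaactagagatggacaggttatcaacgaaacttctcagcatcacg
TWIST1 (probe A_33_P3414591), chr7:19156462-19156521, minus strand: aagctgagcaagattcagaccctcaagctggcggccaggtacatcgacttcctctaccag
ZEB2 (probe A_33_P3243832), chr2:145182363-145182422, minus strand: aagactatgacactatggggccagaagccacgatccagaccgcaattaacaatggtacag
FN1, chr2:216288217-216288895, minus strand: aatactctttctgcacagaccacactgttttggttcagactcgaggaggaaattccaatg
The TWIST1 sequence codes for part of the helix-loop-helix domain, which its relative TWIST2 shares, and cross-hybridization with TWIST2 was not tested.

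NR2F1-AS1 itself followed the labels. The RNA comes from chromosome 5 and had 4 probes. Of these, 2 rose in BT474-Var1 cells and were not well above background in BT474-Var4 cells, 1 rose in BT474-Var4 cells and was not well above background in BT474-Var1 cells, and 1 rose in both. All 10 luminal epithelial markers, among them KRT8, KRT18, KRT19, EPCAM and ERBB2, were well above background on all 6 arrays. Of the 8 basal or myoepithelial markers, 3 were above background on all 6 arrays, and KRT5 and CNN1 on none. Of the 9 fibroblast markers, COL1A1 and PDGFRB were above background on all 6, and COL1A2, COL3A1, THY1, PDGFRA and LUM on none. PTPRC of the 3 leukocyte markers, and VWF and CDH5 of the 4 endothelial markers, were above background on all 6 arrays. The summed level of the fibroblast markers, as log2 against the 75th percentile of each array, was 1.66 to 1.70 in Control, 1.93 to 1.99 in BT474-Var1 and 2.49 to 2.53 in BT474-Var4 cells. That of the basal markers was 0.89 to 0.95, 1.63 to 1.66 and 1.89 to 1.98. That of the luminal markers was 11.08 to 11.11, 11.41 to 11.43 and 11.05 to 11.06. Each sum mostly follows its brightest markers. For the 3 basal markers above background on all 6 arrays, log2 differences from Control with variants 1 and 4 were 1.61 and 0.36 (EGFR), -0.11 and 1.57 (OXTR), and -0.006 and 0.24 (MYLK). Those of the fibroblast markers COL1A1 and PDGFRB were 0.34 and 1.03, and -0.02 and -0.32. With variant 1 the luminal markers KRT19 (0.62), KRT8 (0.32), ERBB2 (0.22) and MUC1 (0.88) rose against Control. EPCAM (-0.66), CDH1 (-0.47) and FOXA1 (-0.50) fell, and KRT18, SPDEF and GATA3 gave 0.06, 0.09 and 0.17. CDH1 is also one of the 10 genes. The leukocyte sum ran from -0.11 to -0.06, from -0.00083 to 0.06 and from -0.29 to -0.14, and the endothelial sum from 1.39 to 1.49, 0.84 to 0.94 and 1.30 to 1.37. DCN, a fibroblast proteoglycan, was well above background in BT474-Var4 cells alone, and FAP, another fibroblast marker, in BT474-Var1 cells alone. Of the basal markers, KRT17 was well above background in BT474-Var1 cells alone, and KRT14 with both variants but not in Control cells. The part of these markers in the results below was not tested, and fewer cells of a type cannot be told apart from less RNA per cell. The BT474-Var1 arrays lay in slide column 2 and the other 4 in slide column 1, so BT474-Var1 and slide column cannot be told apart.

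Levels are given as log2 of the processed intensity with 0 at the 75th percentile of the array, and the levels of different probes are not set against each other. A probe entered the test if some group had it well above background on each of its 2 arrays, and 10 of the 17 probes, from 8 of the 10 genes, passed. The 7 others were mostly dark. FN1, which encodes the matrix protein fibronectin, had 1 probe, and it was not well above background on any array, with levels from -6.62 to -5.69. ZEB2, a zinc finger repressor of CDH1, had 3 probes. Probe A_23_P142560 and probe A_21_P0000590, which reads a noncoding transcript of the locus, were not well above background on any array. The coding ZEB2 probe shown above was well above background on the Control A array alone, at -2.46, against -5.32 on Control B and -6.27 to -5.69 on the other 4. The second ZEB1 probe, A_33_P3640690, was not well above background on any array. The same held for 2 probes filed under TWIST1 at chr7:19039592-19039651 and chr7:19039842-19039901, which read a separate noncoding transcript on the same strand. A probe that is not well above background has only an upper limit, so no direction was read for FN1 and ZEB2.

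**Figure D1:**
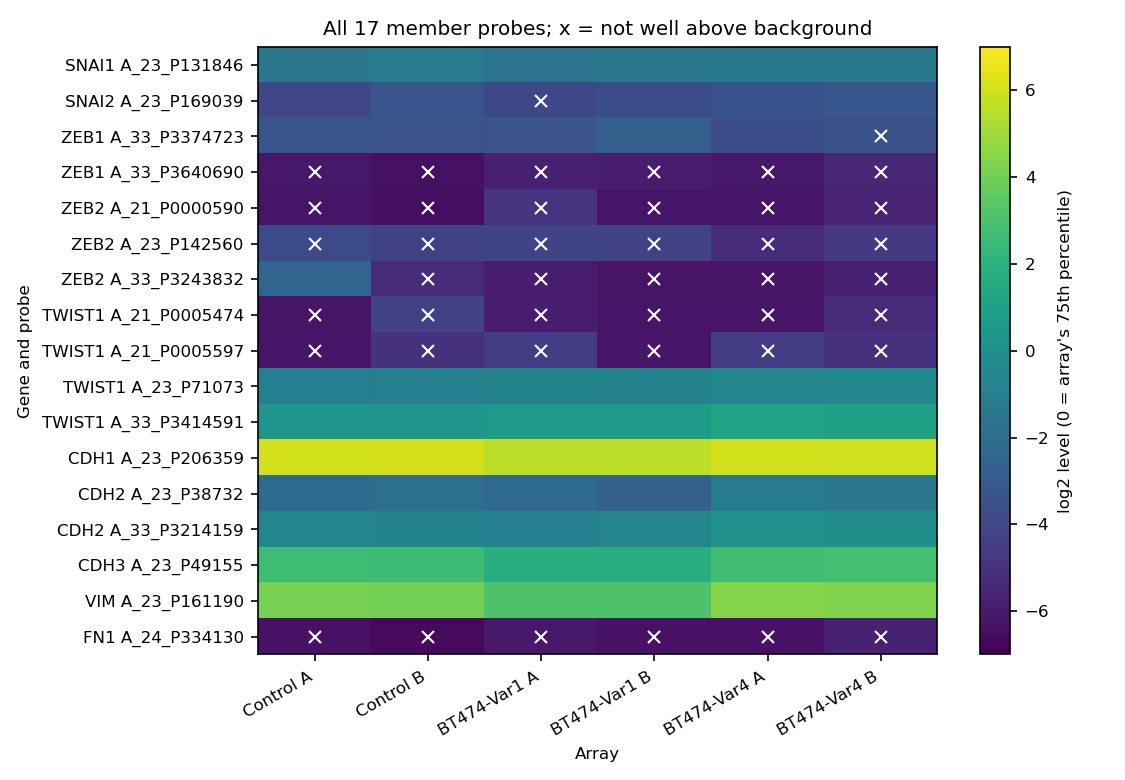
Log2 level of the 17 probes (rows) on the 6 arrays (columns), with 0 at the 75th percentile of the array and an x where the probe was not well above background. CDH1, VIM, CDH3, SNAI1 and the mRNA probes of TWIST1 and CDH2 were well above background on all 6 arrays, FN1 on none and ZEB2 on 1 array with 1 of 3 probes.

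SNAI1, SNAI2 and ZEB1 did not pass the test in any comparison. SNAI1, the Snail factor, stood at -1.43 and -1.22 in Control, -1.67 and -1.40 in BT474-Var1 and -1.36 and -1.34 in BT474-Var4 cells. The Control arrays overlapped with those of both variants. SNAI2, the Slug factor, stood at -4.01 and -3.28 in Control, -3.98 and -3.65 in BT474-Var1 and -3.49 and -3.21 in BT474-Var4 cells. This is close to background, and BT474-Var1 A was not well above it. ZEB1 (probe A_33_P3374723) stood at -3.24 and -3.29 in Control, -3.42 and -2.76 in BT474-Var1 and -3.67 and -3.51 in BT474-Var4 cells, where array B was not well above background. The BT474-Var4 arrays lay lowest, but limma gave an adjusted p of 0.348 against Control and 0.147 against BT474-Var1 cells. For BT474-Var1 against Control, the 95% intervals of the log2 difference reached from -0.54 to 0.12 for SNAI1, from -0.93 to 0.59 for SNAI2 and from -0.44 to 0.78 for ZEB1. For BT474-Var4 against Control they reached from -0.36 to 0.30, from -0.47 to 1.05 and from -0.94 to 0.28. The data therefore left room for changes of SNAI2 and ZEB1 as large as those of the cadherins below. They also left room for a fall of SNAI1 in BT474-Var1 cells as large as that of CDH1. ZEB1 passed against BT474-Var1 cells only without BT474-Var1 A, with a log2 difference of -0.83 and an adjusted p of 0.0223, and after normexp background correction, with -0.18 and 0.0157.

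TWIST1, a basic helix-loop-helix factor that drives EMT and metastasis in mammary cells, was the only one of the 5 transcription factors that passed. ZEB2 was not tested. The coding probe A_33_P3414591 read 0.34 and 0.30 in Control, 0.65 and 0.63 in BT474-Var1 and 1.16 and 1.02 in BT474-Var4 cells. The other mRNA probe, A_23_P71073, read -0.97 and -0.90, -0.66 and -0.76, and -0.47 and -0.44. On both probes the 3 groups stood in the same order without overlap, Control lowest and BT474-Var4 highest. In BT474-Var4 cells TWIST1 rose by 0.77 ± 0.07 (log2 difference ± SE, n = 2 arrays per group, limma adjusted p 0.00606), which is 1.71-fold, on the coding probe and by 0.48 ± 0.06 (adjusted p 0.0127) on the other. In BT474-Var1 cells it rose by 0.32 ± 0.07 (adjusted p 0.0265) on the coding probe, while the other gave 0.22 ± 0.06 (adjusted p 0.052). BT474-Var4 exceeded BT474-Var1 cells by 0.45 (adjusted p 0.00969) and 0.25 (adjusted p 0.0331). The call on the coding probe in BT474-Var1 cells was also lost with the gIsPosAndSignif filter (0.0612) and by the one-way analysis of variance of the methods (0.0502), and it was lost whenever 1 of the 4 arrays compared was left out, with adjusted p from 0.0919 to 0.117. The same held for probe A_23_P71073 in BT474-Var4 cells, with 0.0554 to 0.0727. On that probe the difference between the variants was lost without any of the 6 arrays, with 0.0561 to 0.117.

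**Figure D2:**
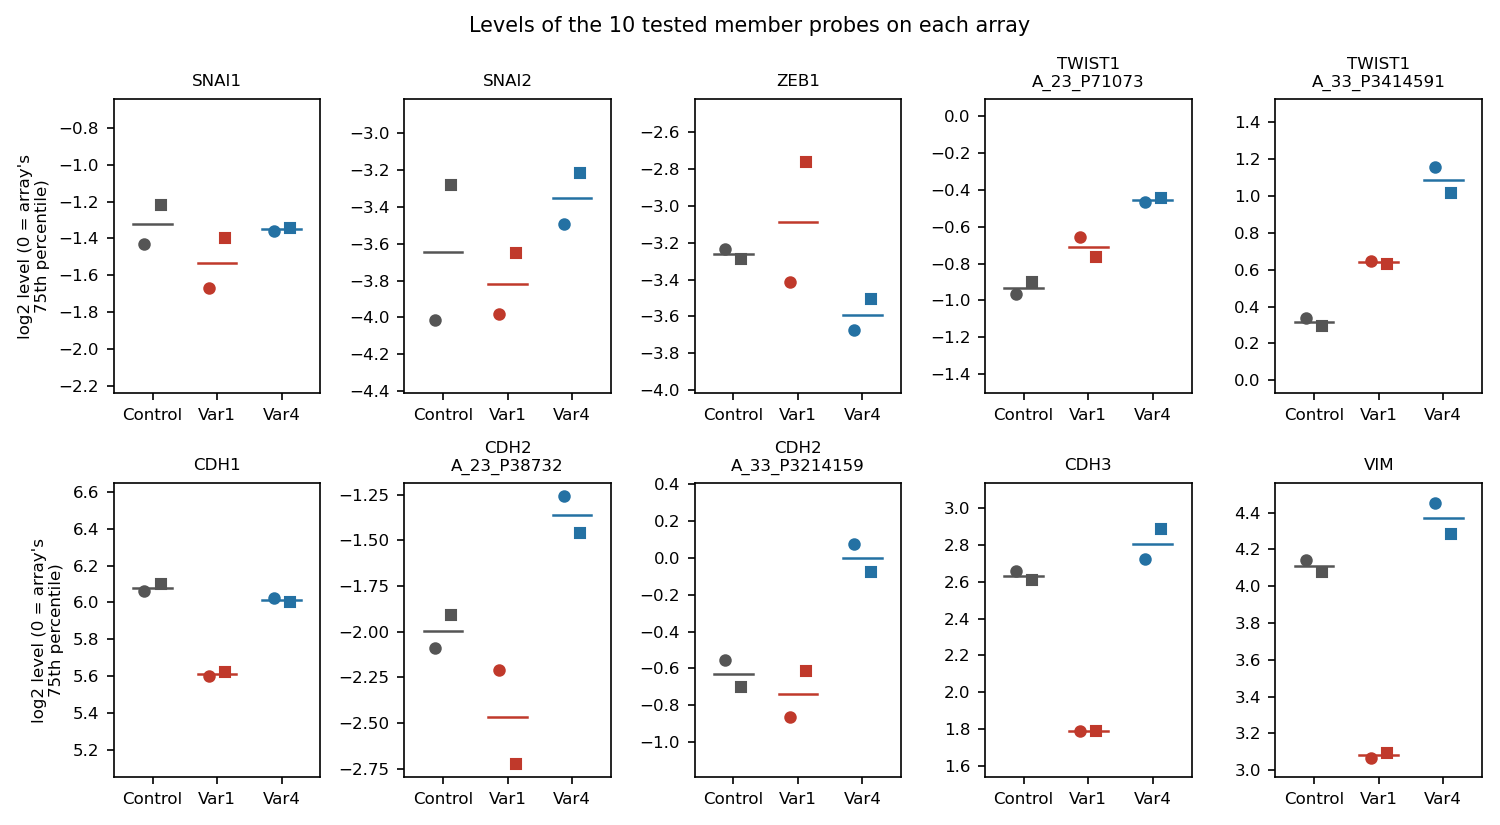
Log2 levels of the 10 tested probes on each array, with 0 at the 75th percentile of the array (circle, array A; square, array B; line, mean of the 2 arrays); each panel has its own axis. The TWIST1 points stand in the order Control, BT474-Var1, BT474-Var4 on both probes, of which the step from Control to BT474-Var1 cells passed the test on the coding probe alone, whereas CDH1, CDH3 and VIM are low in BT474-Var1 cells.

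CDH1 encodes E-cadherin, the main adhesion molecule of epithelial junctions. Its probe lay in chr16:68869214-68869273, was printed in 10 spots and read 6.06 and 6.10 in Control, 5.60 and 5.62 in BT474-Var1 and 6.02 and 6.01 in BT474-Var4 cells. Both BT474-Var1 arrays lay below the other 4. CDH1 fell by 0.47 on the log2 scale in BT474-Var1 cells (SE 0.05, adjusted p 0.00588), a 1.39-fold decrease. In BT474-Var4 cells the difference was -0.07 with an interval from -0.20 to 0.06 (adjusted p 0.368). The CDH1 calls were lost without a filter on dim probes (adjusted p 0.0536 against Control and 0.0547 between the variants).

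CDH3 encodes P-cadherin, found in basal cells of the breast epithelium, and its gene neighbors CDH1 on chromosome 16. The levels were 2.66 and 2.61 in Control, 1.79 and 1.79 in BT474-Var1 and 2.73 and 2.88 in BT474-Var4 cells. CDH3 fell by 0.84 in BT474-Var1 cells (SE 0.07, adjusted p 0.0046), which is 1.79-fold. In BT474-Var4 cells both arrays lay above Control, but the difference of 0.17 did not pass (adjusted p 0.155).

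CDH2 encodes N-cadherin, which takes the place of E-cadherin in the classical cadherin switch. Probe A_33_P3214159 read -0.55 and -0.70 in Control, -0.86 and -0.61 in BT474-Var1 and 0.08 and -0.08 in BT474-Var4 cells. Probe A_23_P38732 read -2.09 and -1.91, -2.21 and -2.73, and -1.26 and -1.46. On both probes the BT474-Var4 arrays lay above all others. In BT474-Var4 cells the first probe rose by 0.63 ± 0.12 (adjusted p 0.0274), or 1.55-fold, and the second gave 0.64 ± 0.20 (adjusted p 0.0828). After normexp correction they gave 0.39 and 0.20. The rise of the first was lost when any of the 4 arrays compared was left out (adjusted p 0.0753 to 0.121). The second passed when either BT474-Var1 array was left out (0.0456). In BT474-Var1 cells the differences from Control were -0.11 (adjusted p 0.511) and -0.47 (adjusted p 0.139), and the second passed without BT474-Var1 A, at -0.73 and 0.0497. The rise of N-cadherin mRNA in BT474-Var4 cells thus passed on 1 of 2 probes.

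VIM encodes vimentin, the intermediate filament of mesenchymal cells, and differed from Control in BT474-Var1 cells more than any other of the 10 probes. Its levels were 4.14 and 4.08 in Control, 3.07 and 3.09 in BT474-Var1 and 4.45 and 4.28 in BT474-Var4 cells. In BT474-Var1 cells VIM fell by 1.03 on the log2 scale (SE 0.08, adjusted p 0.00396), a 2.04-fold decrease and the only difference of these probes from Control beyond 2-fold. Called differences of 2-fold or more made up 3.94% of all tested probes in that comparison and 3.17% in BT474-Var4 against Control cells. The VIM difference in BT474-Var1 cells was -0.93 after quantile normalization and -0.998 without Control A, short of 2-fold. In BT474-Var4 cells both arrays lay above Control and the difference was 0.26 ± 0.08 (adjusted p 0.0784). It passed with a trended robust variance (adjusted p 0.00235) and after normexp correction (0.00677). BT474-Var1 cells had lower mRNA levels of E-cadherin and of vimentin at the same time.

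Counted over the 10 tested probes, 1 rose and 3 fell in BT474-Var1 cells, where 14.1% of all 31858 tested probes rose and 20.3% fell, 34.4% in either direction. With an unadjusted limma p under 0.05, 2 of the 10 rose and 3 fell there. In BT474-Var4 cells 3 rose and none fell, against a background of 9.87% and 14.3%, 24.2% in either direction. At an unadjusted limma p under 0.05, 5 of the 10 rose and 0 fell. The 3 probes came from 2 genes, and only the coding TWIST1 probe was called without any one of the Control or BT474-Var4 arrays. The median log2 difference of the 10 probes was -0.19 with variant 1 and 0.27 with variant 4, beside -0.04 and -0.08 over all tested probes.

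**Figure D3:**
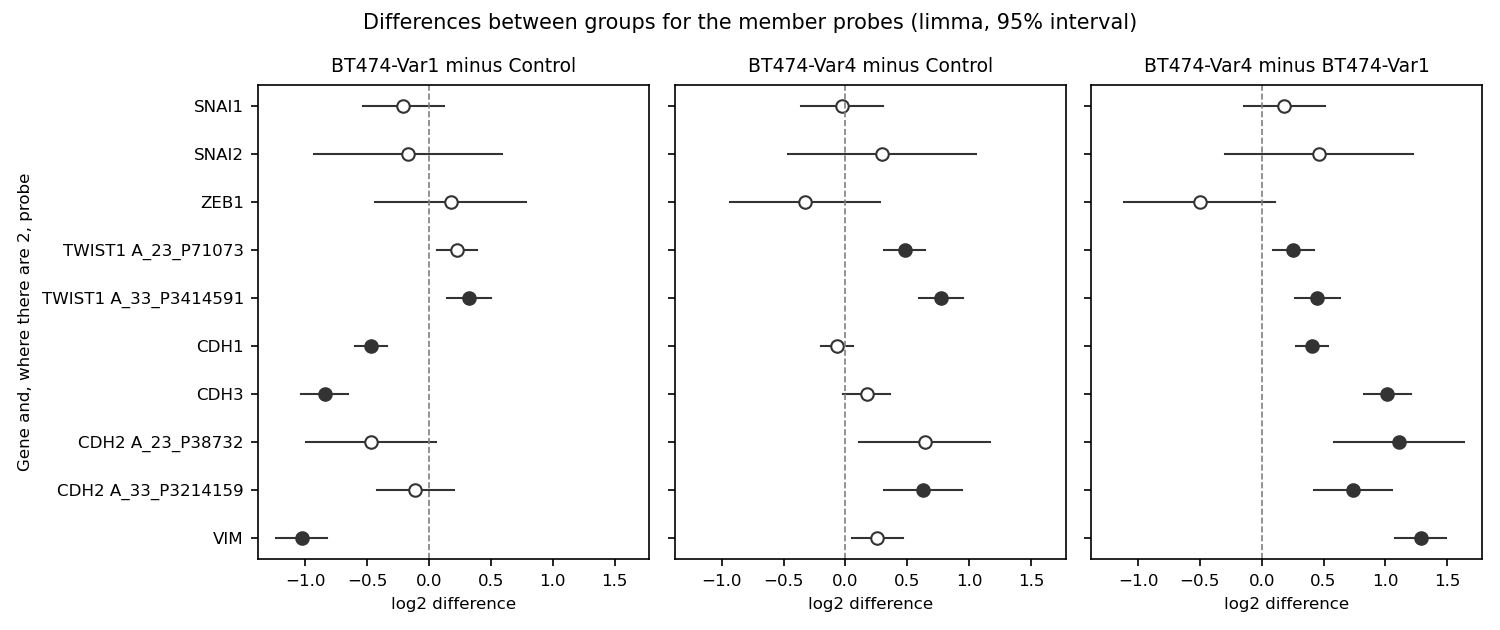
Log2 difference with its 95% interval for each tested probe in the 3 comparisons (filled, adjusted p under 0.05; open, not called). VIM, CDH3 and CDH1 lie below 0 in BT474-Var1 against Control cells, and 7 of the 10 probes lie above 0 and are called in BT474-Var4 against BT474-Var1 cells.

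The variants were then compared directly. BT474-Var4 cells exceeded BT474-Var1 cells on 7 of the 10 probes and fell below on none that passed (7 and 0 at an unadjusted limma p under 0.05), where 20.4% of all tested probes were called higher and 41.2% in either direction. The 7 probes came from 5 genes. Of these, VIM, CDH3 and CDH1 were also called lower in BT474-Var1 than in Control cells. The same BT474-Var1 arrays enter both comparisons. VIM was higher by 1.29 (SE 0.08, interval 1.08 to 1.49, adjusted p 0.00165), which is 2.44-fold. CDH3 was higher by 1.01 (SE 0.07, adjusted p 0.00211) and CDH1 by 0.40 (SE 0.05, adjusted p 0.00596). CDH2 was higher by 1.11 (SE 0.20, adjusted p 0.0148) and 0.74 (SE 0.12, adjusted p 0.0113) on its 2 probes. After normexp background correction, the CDH2 differences shrank to 0.29 and 0.46 and stayed called. VIM, CDH3 and CDH2 probe A_23_P38732, the last not after normexp, passed 2-fold as well, as did 6.86% of all tested probes. Over the processing alternatives the CDH3 difference reached as low as 0.94, which is under 2-fold. The calls of VIM, CDH3, CDH1 and the coding TWIST1 probe held without each array in turn. Those of CDH2 did not. Probe A_23_P38732 had an adjusted p of 0.0673 without BT474-Var4 A and 0.0508 without BT474-Var4 B, and probe A_33_P3214159 had 0.0517 without BT474-Var4 A. Without BT474-Var4 A, 4 of the 10 probes were called.

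By sequence, the genes were looked up in the RefSeq promoter windows of GRCh38.p14, of which the 250 bases before each annotated start were used. The table held 5 of the 10 genes with 12 starts. SNAI1, SNAI2, TWIST1, CDH1 and CDH3 were not among them, so the motif search did not cover CDH1. Of the 5 genes found, VIM and CDH2 are shown since they alone were called between the variants. The GC box GGGCGG, a binding motif of the Sp factors, is in capitals on either strand.
VIM, chr10:17227991-17228240, plus strand: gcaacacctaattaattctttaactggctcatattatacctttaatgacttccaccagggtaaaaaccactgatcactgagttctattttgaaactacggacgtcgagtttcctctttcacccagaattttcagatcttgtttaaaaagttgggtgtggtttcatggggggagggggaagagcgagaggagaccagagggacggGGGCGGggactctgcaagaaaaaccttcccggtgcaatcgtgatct
CDH2, chr18:28177131-28177380, minus strand, the more upstream of its 2 starts: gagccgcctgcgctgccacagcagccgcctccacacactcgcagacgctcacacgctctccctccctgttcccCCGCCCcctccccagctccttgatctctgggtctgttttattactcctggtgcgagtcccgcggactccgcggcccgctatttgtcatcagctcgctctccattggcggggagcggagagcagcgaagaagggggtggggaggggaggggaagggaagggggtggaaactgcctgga
Each window held 1 GC box, which 42.6% of all 35116 windows hold. The E-box CAGGTG, read by the Snail and ZEB factors, or its reverse complement CACCTG, stood in 2 of the 7 ZEB1 windows and in no window of VIM, CDH2, FN1 and ZEB2, and 17.5% of all windows hold it. These are matches of letters and not binding sites.

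The genes around the 10 were read from lists, 1 probe per gene, the brightest tested. Of the genes named from these lists, KLF8, FOXA1, CTNNB1 and MUC1 had another tested probe that was not called in the comparisons given. Over all 24619 tested gene names, 34.9% were called in BT474-Var1 cells, 14.2% higher and 20.7% lower. In BT474-Var4 cells 24.8% were called, 10.2% higher and 14.6% lower. Between the variants 42% were called, 20.9% higher and 21% lower in BT474-Var4 cells.

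Of 11 tested among 15 other EMT transcription factors, 1 rose and 2 fell in BT474-Var1 cells, and 1 rose and 3 fell in BT474-Var4 cells. Against Control the BT474-Var4 median was -0.31 beside -0.08 over all tested genes. Between the variants 1 was higher and 5 lower in BT474-Var4 cells, with a median of -0.23 beside -0.03. TWIST2, the closest relative of TWIST1, went another way than TWIST1 in BT474-Var1 cells. It read -2.77 and -2.73 in Control, -3.78 and -3.79 in BT474-Var1 and -2.41 and -2.18 in BT474-Var4 cells. With variant 1 TWIST2 fell by 1.04 (adjusted p 0.0047), to levels close to background, and with variant 4 it rose by 0.45 (adjusted p 0.0316). In BT474-Var4 cells KLF8 fell by 0.91, and TCF3, which encodes an E protein that pairs with Twist factors, fell by 0.71. SNAI3 fell by 0.62 in the same cells, to -3.77 and -3.43, which is also close to background. In BT474-Var1 cells GATA6 rose by 0.33 and SOX9 fell by 0.75.

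All 14 epithelial transcription and splicing factors were tested. In BT474-Var1 cells 3 rose and 5 fell, and in BT474-Var4 cells 6 rose and 4 fell. ESRP1 and ESRP2, the epithelial splicing regulators, fell by 0.33 and 0.36 in BT474-Var4 cells. Both also fell in BT474-Var1 cells, by 0.27 (adjusted p 0.021) and 0.41 (adjusted p 0.00808), and their differences between the variants did not pass (adjusted p 0.371 and 0.487). FOXA1, a pioneer factor of the luminal lineage, fell by 0.50 with variant 1 and by 0.40 with variant 4. ELF3 rose by 0.67 in BT474-Var1 cells. OVOL1, which opposes ZEB1, rose by 0.73 and GRHL1 by 0.76 in BT474-Var4 cells. GRHL3 fell by 0.66 in BT474-Var1 cells and exceeded them by 1.14 in BT474-Var4 cells (adjusted p 0.00235).

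The list of partners that help Snail and ZEB proteins repress or that set their turnover had 22 tested genes. In BT474-Var1 cells 3 rose and 11 fell, with a median of -0.23 beside -0.05 over all tested genes, and in BT474-Var4 cells 4 rose and 4 fell, with a median of -0.014 beside -0.08. AJUBA, a LIM protein that bridges Snail to its corepressors, fell by 0.72 with variant 1 (adjusted p 0.00383) and rose by 0.37 with variant 4 (adjusted p 0.0145). KDM1A, the histone demethylase that Snail recruits, fell by 0.51 in BT474-Var1 cells. LOXL2, a lysyl oxidase that stabilizes Snail, rose by 0.69 with variant 1 and by 0.63 with variant 4. FBXL14, a ubiquitin ligase subunit that degrades Snail and Twist proteins, rose by 0.84 in BT474-Var4 cells.

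Among 14 tested catenins and adherens junction partners, 3 rose and 6 fell in BT474-Var1 cells, and 4 rose and 1 fell in BT474-Var4 cells. Where CDH1 fell, CTNNB1, the β-catenin that binds its tail, rose by 0.36 (adjusted p 0.00972), reading 4.29 and 4.31 in Control and 4.63 and 4.69 in BT474-Var1 cells. JUP, plakoglobin, rose by 0.30 with variant 1 and by 0.57 with variant 4. The nectin genes PVRL1 and PVRL3 fell by 0.74 and 0.52 in BT474-Var1 cells.

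Of 19 other cadherins 9 were tested, 2 rose and 1 fell in BT474-Var1 cells, and 1 rose in BT474-Var4 cells. CDH11, a mesenchymal cadherin, read -4.48 and -3.71 in Control, where it was well above background on 1 array, -5.61 and -4.46 in BT474-Var1, where it was on none, and -1.96 and -1.85 in BT474-Var4 cells. BT474-Var4 cells exceeded BT474-Var1 cells at least 4.34-fold, with the BT474-Var1 arrays raised to the dimmest level well above background. CDH10 was not well above background in Control cells, and BT474-Var1 cells exceeded them at least 3.02-fold. CDH11 and CDH10 entered the test only through the group where they were high, so no p-value is given for them, although both are among the genes counted as risen. CDH22 fell by 0.55 in BT474-Var1 cells.

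Of 30 other mesenchymal filament and matrix genes, 18 were tested. In BT474-Var1 cells 3 rose and 5 fell, with a median of -0.09, and in BT474-Var4 cells 4 rose and 1 fell, with a median of 0.11. Between the variants 9 were higher and 1 lower in BT474-Var4 cells, with a median of 0.32 beside -0.03 over all tested genes. TNC, the matrix protein tenascin C, fell by 1.62 in BT474-Var1 cells (adjusted p 0.00334), reading 0.43 and 0.68 in Control, -1.06 and -1.07 in BT474-Var1 and 0.55 and 0.62 in BT474-Var4 cells. SERPINE2, a protease inhibitor, fell by 1.58 and COL5A2 by 0.85 in the same cells, whereas TAGLN, an actin-binding protein, rose by 0.73. S100A4 rose by 1.22, COL1A1 by 1.03 and COL6A1 by 0.96 in BT474-Var4 cells. In BT474-Var1 cells S100A4 and COL1A1 also rose, by 0.22 (adjusted p 0.046) and 0.34 (adjusted p 0.0116), and COL6A1 fell by 0.35 (adjusted p 0.0164). COL1A1 is also one of the fibroblast markers above. ACTA2, POSTN, LOX, MMP2 and FBN1 were among the 12 genes that did not reach the test.

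**Figure D4:**
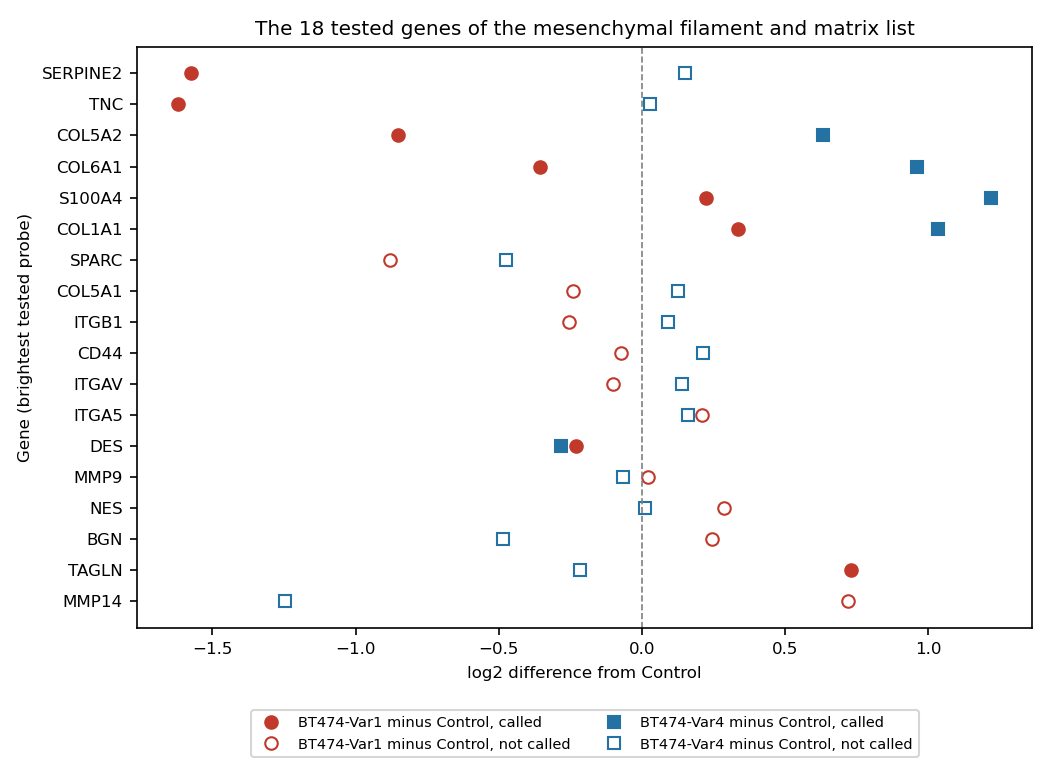
Log2 difference from Control of the 18 tested mesenchymal filament and matrix genes, 1 probe per gene, in BT474-Var1 (circles) and BT474-Var4 cells (squares), filled where the adjusted p is under 0.05. The 2 differences share the Control arrays, and the genes are ordered by BT474-Var4 minus BT474-Var1 with the highest on top.

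All 20 epithelial junction and surface genes were tested, 7 rose and 5 fell in BT474-Var1 cells, and 7 rose and 1 fell in BT474-Var4 cells. EPCAM fell by 0.66 (adjusted p 0.00523), PKP2 by 0.70 and DSG2, a desmosomal cadherin, by 0.58 in BT474-Var1 cells. In the same cells MUC1 rose by 0.88 and KRT19, a luminal keratin, by 0.62 (adjusted p 0.00445). In BT474-Var4 cells DSC2, another desmosomal cadherin, rose by 0.75 and MUC1 by 0.63. The epithelial list thus moved in both directions in BT474-Var1 cells.

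Antisense RNAs and microRNA hosts beside the 10 genes had 3 tested members. ZEB1-AS1 rose by 0.46 in BT474-Var1 cells (adjusted p 0.0232). The brightest probe of VIM-AS1 gave -0.32 for variant 4 minus variant 1 (adjusted p 0.0477), but its other probe was called in the opposite direction. The brightest probe of MIR205HG, the host of miR-205, was not called, while of its 2 other probes 1 was called lower with variant 1 and 2 with variant 4, each against Control.

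**Figure D5:**
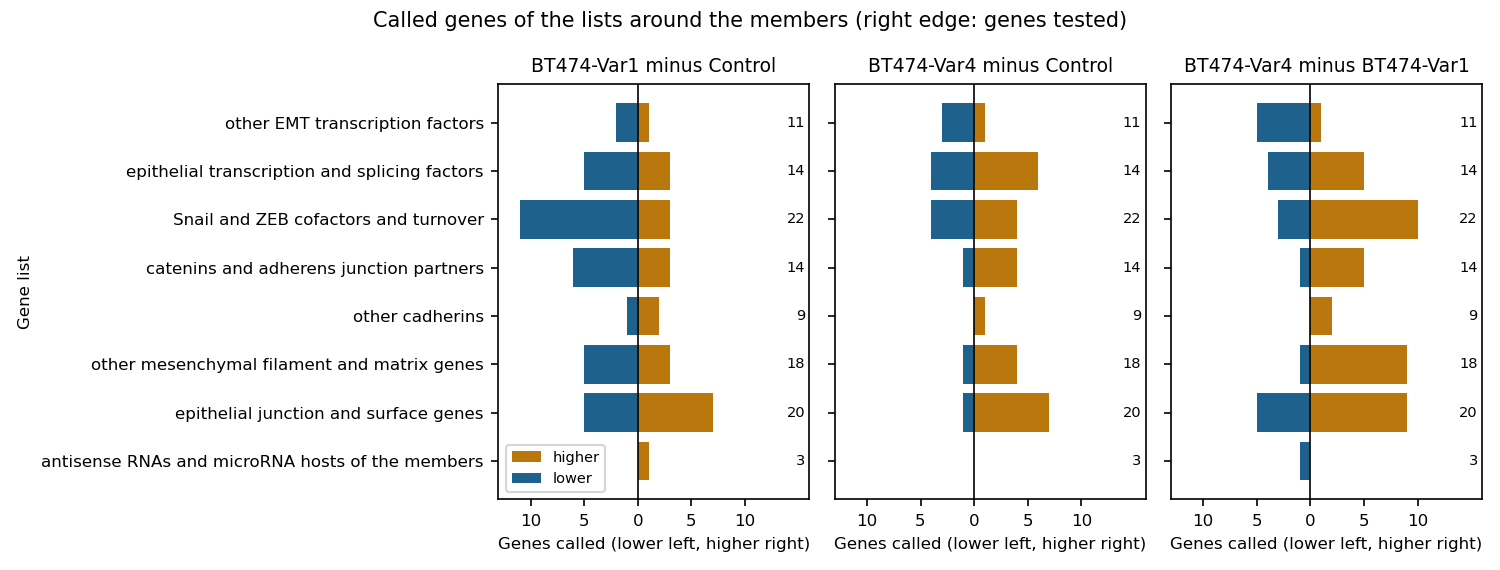
Number of genes called higher (right) and lower (left) in each list and comparison, with the number of genes tested at the right edge. The partners of Snail and ZEB proteins have 11 genes lower and 3 higher in BT474-Var1 cells, and the mesenchymal list has 9 genes higher and 1 lower in BT474-Var4 against BT474-Var1 cells. The other EMT transcription factors have 1 gene higher and 5 lower in BT474-Var4 against BT474-Var1 cells.

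The genes whose levels over the 6 arrays were most like those of each called gene were named by the highest Pearson r among 19279 or 19280 probes above background on all arrays. With 3 group means behind 6 arrays, such an r mostly repeats the order of the groups. For VIM they were CEBPB, CDYL2 and HIST1H2BM (r of at least 0.999), for CDH1 CPE, M6PR and LY6E (at least 0.999), and for CDH3 CBFB, SDHA and CIAPIN1 (0.999). For TWIST1 they were COL16A1, BST2 and ENOX1 (0.996 to 0.997), and for CDH2 ADPRH, EDEM2 and LGALS3 (0.995 to 0.999). BST2, the surface protein tetherin, rose by 0.99 with variant 1 and by 2.21 with variant 4, and COL16A1 rose by 0.43 and 1.04.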

How the data were processed

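Expression was measured on 6 one-color arrays with Cy3-labeled RNA. The authors quantified spots with Agilent Feature Extraction 11.5.1.1, which subtracts background, and the deposited spot intensity values are on a linear scale, not normalized between arrays. The authors also deposited a log2 table after a 75th percentile shift, used as an alternative. Here log2 processed intensities less the 75th percentile of each array were used, outlier spots were left out and spots of a probe averaged. Group means were estimated over the 6 arrays together by limma 3.58.1 (R 4.3.3), with Benjamini-Hochberg adjustment over 31858 probes, and a call is an adjusted p under 0.05. Well above background is the flag of the software, and 47.6% to 57.5% of probes per array had it. Letters A and B do not pair arrays across groups (correlations of deviations -0.015 to 0.045). Genes of a list were named by a rule, up to 3 rises and 3 falls per comparison. The genes and lists were chosen with earlier results of these data known.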

Additional observations from a re-analysis of the deposited data

How the results depend on the processing

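Over 16 alternatives, the falls of VIM and CDH3 in BT474-Var1 cells and their differences between the variants kept direction and call, at -1.07 to -0.93 and -0.87 to -0.75, and at 1.19 to 1.37 and 0.94 to 1.09. Without a filter on dim probes, 2, 0 and 2 of the 10 probes were called for variant 1 against Control, variant 4 against Control and variant 4 against variant 1, beside 4, 3 and 7, with 4, 4 and 7 at an unadjusted limma p under 0.05. Over all probes 2672, 722 and 5112 were then called, beside 10959, 7709 and 13117, and of the list genes 16, 6 and 28, beside 57, 40 and 60, with all 58201 probes in the adjustment. In BT474-Var4 against Control cells, normexp and a trended robust variance each called 6 of the 10 probes. There the gIsPosAndSignif filter called 3787 probes and 21 list genes, and the replicate block 4903 probes. The letters share only a number, and with the block the rise of CDH2 in BT474-Var4 cells (adjusted p 0.0632) and that of TWIST1 probe A_23_P71073 between the variants (0.0681) were lost. The methods' one-way analysis of variance lost that rise of CDH2 (0.0761), the rise of the coding TWIST1 probe in BT474-Var1 cells (0.0502) and CDH2 probe A_23_P38732 between the variants (0.0556), and the gIsPosAndSignif filter lost the first (0.0634) and second (0.0612) of these and TWIST1 probe A_23_P71073 between the variants (0.0746). Besides CDH2, values that moved over 1.5 times were those of TWIST1 probe A_23_P71073 after normexp (0.25 in BT474-Var4 cells, 0.11 between the variants) and of CDH1 in BT474-Var1 cells after quantile normalization (-0.31), among called differences. The cause was not tested.

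With each array left out in turn, which leaves a group of 1 array assumed to vary like the others, the probes called ranged from 3 to 4, 1 to 4 and 4 to 7 of the 10, from 4172 to 9409, 1501 to 5487 and 8086 to 10693 of all, and from 24 to 47, 9 to 32 and 33 to 49 list genes. No called difference changed direction. Among those not called, these did. In BT474-Var1 cells SNAI2 gave 0.038 after normexp and -0.54 to 0.19 with an array left out, ZEB1 gave -0.024 after quantile normalization and -0.15 to 0.50 with an array left out, and CDH2 probe A_33_P3214159 gave -0.23 to 0.014 with an array left out. In BT474-Var4 cells SNAI1 gave 0.0088 after quantile normalization and -0.13 to 0.081 with an array left out, CDH1 gave 0.011 after quantile normalization, and SNAI2 gave -0.074 to 0.66 with an array left out. Between the variants SNAI2 gave -0.025 after normexp. The number of arrays and, for ZEB1 and SNAI2, signal near background limit what can be seen.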
